A study of Mus musculus with 4 samples.

Results

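The nuclear-encoded subunits of the respiratory chain and of ATP synthase were described in RNA from the lumbar spinal cord of WT and G93A mice. The genes were taken by name: Nduf subunits of the a, b, c, s and v series, Sdha to Sdhd, and all names that begin with Uqcr, with Cox4 to Cox8 or with Atp5, without the Ndufaf assembly factors. This gave 84 of the 18674 gene names in the expression table, in 93 of its 23750 rows, with 35 names in complex I, 4 in complex II, 8 in complex III, 20 in complex IV and 17 in complex V. Ndufa4 and Ndufa4l2 were placed in complex IV, where the Ndufa4 protein is found. The name rule also took 4 genes that are no structural subunit of these complexes: Cox4nb (now Emc8), Cox7a2l, which acts in supercomplex assembly, Atp5s (now Dmac2l) and Atp5sl (now Dmac2). A further 7 names are isoforms known mainly from other tissues, which leaves 73 ubiquitous structural subunits.

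The study asked how spermidine (SD), a natural polyamine, changes expression in a mouse model of amyotrophic lateral sclerosis. G93A mice carry a mutant human SOD1 transgene (the H1 high-expresser strain, on a mixed B6/SJL background), and their WT counterparts do not. The 4 libraries were made from male mice aged 100 days, with 1 vehicle and 1 SD library for each genotype, here called vehicle and + SD. SD or PBS had been given 4 times per week over 30 days, and the section of the methods on dosing gives 5 mg/kg by intraperitoneal injection, names saline as the vehicle and describes a longer treatment with more than 1 age at its start. How many animals each library holds is not stated. With 1 library per condition no test between conditions was run, and every difference is a description of these libraries without a replicate check. Values are RPKM (reads counted per kilobase of a transcript, relative to the size of the library), a unit inferred from the values, and a name with several rows has the mean of its rows. The depth was estimated from the low values at 36800000 to 38600000 read pairs per library. The commonest low step was taken as 1 read pair, which is an assumption. The methods name paired-end adaptors but do not say whether both ends were read. Mouse Sod1 lay between 29.0 and 31.9 RPKM in all libraries; the human transgene was not analysed here. Markers of the main spinal cord cell types were present, and their levels differed between the genotypes. The summed RPKM of 13 microglia markers was 256 and 230 in the WT libraries and 1660 and 1838 in the G93A libraries (vehicle and SD), and that of 9 astrocyte markers was 2209 and 2065 against 4621 and 5310. Motor neuron markers (12 genes) summed to 1851 and 1766 in WT and to 986 and 636 in G93A, general neuron markers (14) to 2949 and 2943 against 2011 and 1765, and oligodendrocyte markers (9) to 9267 and 9565 against 7734 and 7124. In bulk RNA, fewer cells of a type and less RNA per cell cannot be told apart.

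Complexes I to IV pass electrons from NADH and succinate to oxygen in the inner mitochondrial membrane and, except for complex II, pump protons. ATP synthase (complex V) uses the proton gradient to make ATP. A small set of core subunits is encoded by mitochondrial DNA, and the rest, including all genes described here, by the nucleus. Neurons rely on this system for most of their ATP, and several complex IV subunits have a second isoform that is used in heart and skeletal muscle or in testis.

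The upstream sequences of 4 genes on which the results below turn are shown first, beside that of a ubiquitous subunit. Cox6a2 is another such gene, but no promoter was available for it, so its sequence is not shown. Sequences are from RefSeq (GRCm38.p6), 5′ to 3′ on the strand of the gene, and stop before the annotated gene. Capitals mark exact matches, on either strand, to 5 motifs: GCGCANGCG (NRF1), CCGGAAG (GABPA), AAGATGGCG (YY1), AAGGTCA (ERR) and CCAAT. Cox6b2 (chr7:4753095-4753344, minus strand), Cox7a1 (chr7:30183921-30184170, plus strand) and Cox8b (chr7:140900447-140900696, minus strand) are tissue isoforms of complex IV that differed between the genotypes. Atp5g1 (chr11:96075695-96075881, minus strand) is a c-ring gene that differed with SD. Cox6a1 (chr5:115348959-115349208, minus strand) is shown for contrast, as the ubiquitous counterpart of an isoform below.
Cox6b2: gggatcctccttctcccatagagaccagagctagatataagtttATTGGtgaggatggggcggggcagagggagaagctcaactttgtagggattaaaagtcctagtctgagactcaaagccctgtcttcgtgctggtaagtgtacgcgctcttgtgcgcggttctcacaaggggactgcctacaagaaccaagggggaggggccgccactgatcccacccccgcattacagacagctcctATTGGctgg
Cox7a1: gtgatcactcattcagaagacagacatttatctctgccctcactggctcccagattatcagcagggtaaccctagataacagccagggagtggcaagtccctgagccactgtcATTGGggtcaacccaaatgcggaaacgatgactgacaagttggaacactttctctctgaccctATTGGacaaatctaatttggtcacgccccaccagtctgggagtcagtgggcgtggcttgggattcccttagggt
Cox8b: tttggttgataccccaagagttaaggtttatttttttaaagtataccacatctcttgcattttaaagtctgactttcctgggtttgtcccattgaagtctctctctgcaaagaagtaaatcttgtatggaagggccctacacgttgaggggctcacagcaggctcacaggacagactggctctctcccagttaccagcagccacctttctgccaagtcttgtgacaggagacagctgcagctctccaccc
Atp5g1: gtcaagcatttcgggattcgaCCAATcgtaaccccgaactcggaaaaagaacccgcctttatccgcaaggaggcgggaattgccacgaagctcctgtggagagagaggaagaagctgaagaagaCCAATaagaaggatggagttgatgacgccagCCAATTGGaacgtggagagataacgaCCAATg
Cox6a1: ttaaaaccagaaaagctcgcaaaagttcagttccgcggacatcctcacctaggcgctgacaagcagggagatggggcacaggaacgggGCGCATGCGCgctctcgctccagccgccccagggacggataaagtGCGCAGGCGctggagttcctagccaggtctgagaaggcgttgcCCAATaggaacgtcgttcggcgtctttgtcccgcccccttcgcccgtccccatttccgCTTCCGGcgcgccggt

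Cox6a1 held 3 matches to the NRF1 letters, 2 of them overlapping on opposite strands, together with 1 GABPA and 1 CCAAT match. Cox6b2 and Cox7a1 each held 2 CCAAT matches and none of the other letters, and Cox8b held no match. Atp5g1 held 5 CCAAT matches, of which 2 overlap in the run ccaattgg. Over the longer windows of 300 bases (250 before the start of transcription and 50 after it), RefSeq gave a promoter for 69 of the 84 names, and for 62 of the 73 ubiquitous structural subunits. The NRF1 letters stood in 20 of these 62 (32.3%), against 7.03% of the 27025 genes with a promoter and 18.5% of the 2374 genes averaging 20 RPKM or more here. The GABPA letters stood in 16 (25.8%, against 9.93% and 19.8%), the YY1 letters in 7 (11.3%, against 1.64% and 3.88%) and the ERR letters in 8 (12.9%, against 5.38% and 3.66%). CCAAT was about as frequent in the subunits (26 of 62, 41.9%) as in all genes (41.1%) or in genes of at least 20 RPKM (44.2%). A match is a description of the letters and not a measured binding site.

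Most subunits were among the strongly expressed genes of the cord. No name was at 0 in any library, and 63 of the 84 averaged 20 RPKM or more over the 4 libraries, 19 of these at least 100. The summed RPKM of the 84 names was 6943 and 7018 in the WT libraries (vehicle, then SD) and 6686 and 6210 in the G93A libraries, which is 2.70%, 2.73%, 2.42% and 2.23% of the sum over all names. The sum and the share were thus lower in both G93A libraries than in both WT libraries, and lowest in G93A + SD. The median subunit lay at 62.6, 64.6, 61.9 and 56.9 RPKM in the same order, so the libraries differed far less than the subunits did among themselves.

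**Figure D1:**
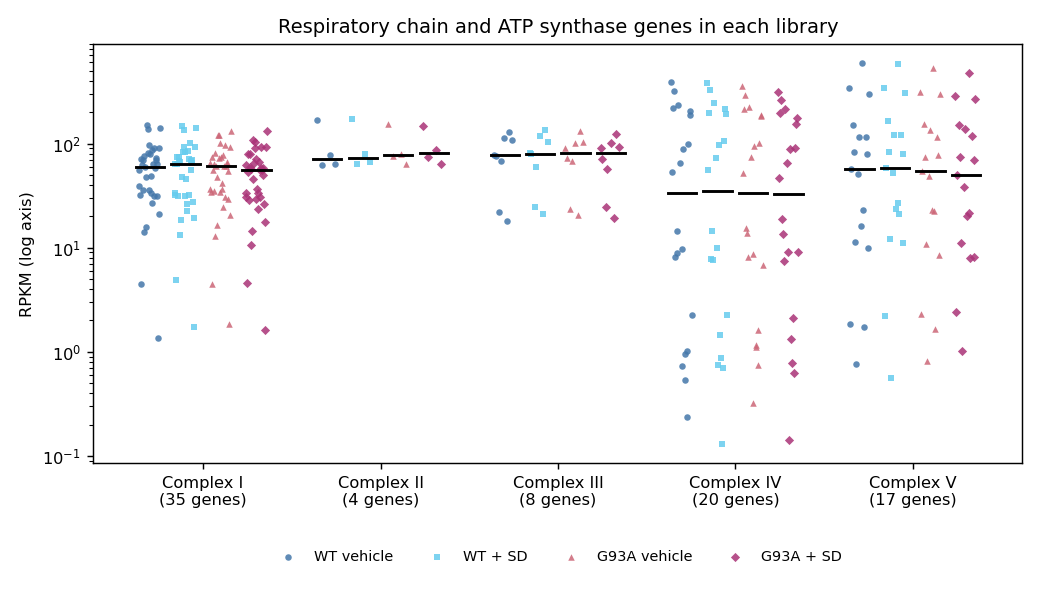
RPKM (log axis) of each of the 84 genes in each of the 4 libraries, grouped by complex; a point is 1 gene in 1 library and a bar is the median of the complex in that library. The medians of a complex lie close together across libraries, while single genes within complexes IV and V reach from under 1 to over 300 RPKM.

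Levels within a complex were uneven although the subunits of a complex are assembled in fixed numbers. In complex I the mean ran from 1.63 RPKM for Ndufb4 to 137 RPKM for Ndufb9, both supernumerary subunits of the membrane arm. In complex II it ran from 64.4 RPKM for Sdhd, a membrane anchor, to 161 RPKM for Sdha, the flavoprotein that oxidises succinate. Complex III ran from 19.7 RPKM for Uqcr11 to 129 RPKM for Uqcrh, the hinge protein. Complex IV ran from 0.490 RPKM for the tissue isoform Cox8b to 358 RPKM for Cox4i1, its ubiquitous regulatory subunit. Complex V ran from 0.785 RPKM for the c-ring gene Atp5g2 to 545 RPKM for Atp5b, the catalytic beta subunit.

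Some ubiquitous subunits share sequence with other genes, among them processed pseudogenes. In the annotation used here (GENCODE M21), 53-base windows, the length of a read, were compared with the transcripts of all other genes. The 45 ubiquitous structural subunits that share under 10% of their windows had a median level of 75.2 RPKM and none was below 19.7. The 23 that share 10% to 50% had a median of 54.8 RPKM and reached down to 1.63 (Ndufb4, 36.8% shared). The 5 that share 50% or more had a median of 7.99 RPKM: Atp5g2 (87.3% shared), Atp5l (84.8%), Atp5g1 (65.3%), Ndufa12 (52.9%) and Cox7c (52.7%). Atp5l, a membrane subunit of ATP synthase, read 1.87, 2.21, 2.32 and 2.40 RPKM (in the order WT vehicle, WT + SD, G93A vehicle, G93A + SD, which is kept below), and Cox7c read 8.84, 7.57, 8.05 and 7.49. Sharing did not always come with a low level, since Atp5f1 (37.4% shared) averaged 54.8 RPKM and Cox5a (30.2%) averaged 189.5. How reads that fit several genes were treated is not stated, and the part of shared sequence in these levels was not tested. Levels of these genes are therefore uncertain. In addition 33 of the 84 genes overlap another annotated gene, 25 of them one on the opposite strand, and no source says that the counting kept strands apart.

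**Figure D2:**
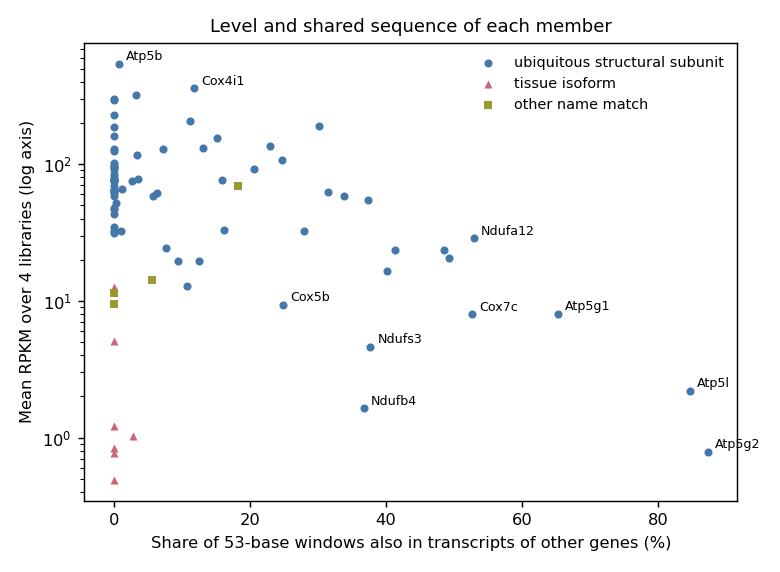
Mean RPKM over the 4 libraries (log axis) against the share of a gene's 53-base windows that also occur in transcripts of other genes; a point is 1 gene, coloured by role. The 5 subunits at 50% or more lie at or below 28.7 RPKM, while the tissue isoforms are low with little or no shared sequence.

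The first comparison was G93A vehicle against WT vehicle. Strongly expressed subunits differed little. Of the 84 names, 4 were at least 1.5-fold higher in G93A vehicle (4.76%), against 20.7% of all names, and 1 was at least 1.5-fold lower (1.19%), against 10.5% of all names. The 4 were Cox6a2, Cox6b2, Cox7a1 and Cox7b2, and the lower one was Cox8b, all of them tissue isoforms of complex IV. None of the 63 subunits averaging 20 RPKM or more passed 1.5-fold in either direction, against 9.91% (higher) and 3.72% (lower) of the 3008 names at that level. The median log2 ratio (with 0.1 RPKM added to each value) was -0.04 over the 84 names, with 36 higher and 48 lower, beside 0.05 over all names (42.5% lower) and -0.01 over names of at least 20 RPKM (50.7% lower). When the libraries were rescaled by median ratios, the split was 23 higher and 61 lower, with a median of -0.10. Names of at least 20 RPKM shifted as well, to 1239 higher and 1769 lower with a median of -0.07. The median over all names then became 0.

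By complex, the medians in this comparison were -0.05 for complex I, 0.00 for complex II, 0.03 for complex III, -0.04 for complex IV and -0.05 for complex V. Those of complexes II and III were below 0 when the libraries were rescaled (-0.06 and -0.04), so no direction is given for them. The 7 core subunits of complex I, which hold the flavin, the iron-sulfur clusters and part of the quinone site, had a median of -0.16, with 5 lower and 2 higher. Ndufv1, which binds NADH and flavin, read 72.3, 67.5, 62.9 and 55.2 RPKM, so both G93A libraries were below both WT libraries. Ndufs1, the large iron-sulfur subunit, read 63.6, 65.5, 54.2 and 50.1 RPKM and showed the same order of genotypes. Ndufs7, which carries the last iron-sulfur cluster before the quinone, read 49.2, 45.4, 41.4 and 37.0 RPKM.

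Ndufb8, a membrane-arm subunit, had the lowest ratio of the vehicle pair among subunits averaging 5 RPKM or more. It read 150 and 146 RPKM in the WT libraries and 119 and 107 in the G93A libraries, which is 1.26-fold lower with vehicle and 1.36-fold lower with SD. Among the subunits of at least 20 RPKM it was the only one at least 20% lower or 25% higher in both genotype pairs. Sdhc, a membrane anchor of complex II, was on the other side, with 62.0 and 63.7 RPKM in WT and 75.8 and 74.6 in G93A (1.22- and 1.17-fold higher), while Sdha read 170, 174, 153 and 148 RPKM and the iron-sulfur subunit Sdhb 77.9, 79.4, 78.7 and 87.2. In complex II, then, Sdha was lower and Sdhc higher in both G93A libraries.

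The second comparison was G93A + SD against WT + SD, 2 libraries that the vehicle pair does not contain. Again 4 names were at least 1.5-fold higher (4.76%), against 23.8% of all names, and 2 were lower (2.38%), against 12.8%. The higher names were Atp5g2, Cox6a2, Cox6b2 and Cox7a1, and the lower ones Atp5g1 and Cox8b. None of the 63 subunits of at least 20 RPKM passed 1.5-fold, against 12.5% (higher) and 10.3% (lower) of names at that level. The median log2 ratio was -0.13, with 17 names higher and 67 lower, beside 0.05 over all names (42.9% lower) and -0.04 over names of at least 20 RPKM (53.6% lower). After rescaling by median ratios it was -0.20. Names of at least 20 RPKM then had a median of -0.11, with 1205 higher and 1803 lower. Complex medians were -0.12 (I), 0.03 (II), -0.12 (III), -0.15 (IV) and -0.20 (V), and that of complex II was -0.03 after rescaling. All 7 core subunits of complex I were lower, with a median of -0.29.

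Beyond the tissue isoforms and Atp5g1, which is described below, the lowest ratios of the SD pair among subunits of at least 5 RPKM were those of Cox5a and Ndufb8. Cox5a, a matrix-side subunit of complex IV, read 205, 213, 184 and 155 RPKM, 1.37-fold lower in G93A + SD than in WT + SD. Cox4i1 read 388, 378, 354 and 312 RPKM, and Ndufa4 322, 323, 292 and 262. In complex III, Uqcrc1, a core protein, read 109, 104, 104 and 93.2 RPKM, and the Rieske iron-sulfur protein Uqcrfs1 read 76.6, 78.7, 72.8 and 70.9. In ATP synthase, the alpha subunit Atp5a1 read 340, 340, 312 and 288 RPKM and Atp5b 592, 584, 529 and 473, while the epsilon subunit Atp5e read 116, 122, 135 and 139. Except for Atp5e, each subunit named in this group had its lowest value in G93A + SD. Ndufa7, a small subunit of complex I, had the highest ratio among subunits of at least 5 RPKM other than the isoforms, from 26.5 RPKM in WT + SD to 33.2 in G93A + SD, but WT vehicle also read 33.2 and G93A vehicle 36.5.

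Over both genotype pairs, 47 of the 84 names (56.0%) were lower in G93A in both, 16 (19.0%) were higher in both and 21 (25%) went opposite ways. Among all names of at least 20 RPKM the shares were 46.7%, 42.5% and 10.8%. Names at least 25% higher in G93A in both pairs were Cox6a2, Cox6b2 and Cox7a1, against 23.6% of all names and 17.3% of names of at least 20 RPKM, and names at least 20% lower in both were Cox8b and Ndufb8, against 13% and 15.8%. G93A + SD was the lowest of the 4 libraries for 53 names (63.1%, against 42.1% of names of at least 20 RPKM) and WT + SD the highest for 38 (45.2%, against 30.6%). Beside these values stand the lower sums of the neuron, motor neuron, oligodendrocyte and endothelial markers in the G93A libraries, lowest in G93A + SD, and the higher sums of the microglia and astrocyte markers, highest in G93A + SD. The 8 endothelial markers summed to 83.4, 78.8, 75.3 and 64.2 RPKM, with all 8 lower in both genotype pairs (median log2 ratios -0.15 and -0.29), and the 9 oligodendrocyte markers to 9267, 9565, 7734 and 7124 RPKM, with 6 and 7 lower (-0.16 and -0.38). The part of these cell types in the levels of the subunits was not tested.

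**Figure D3:**
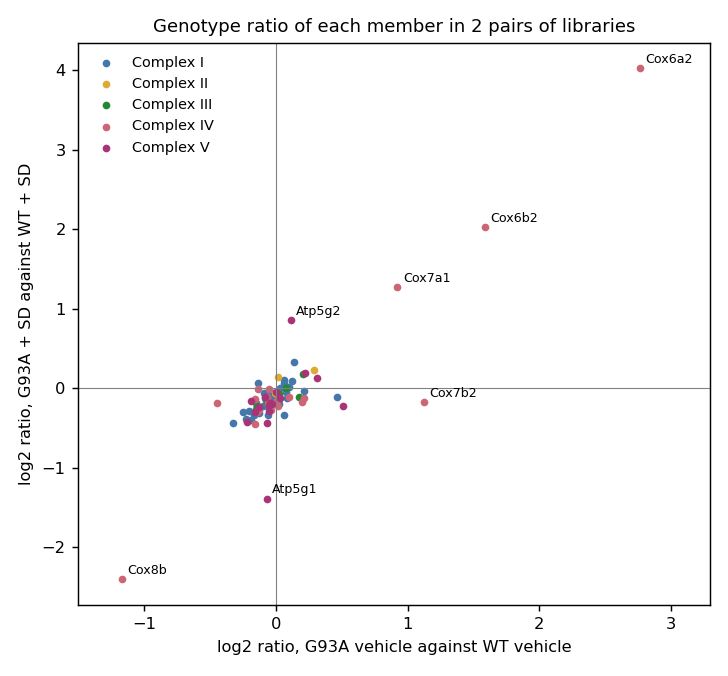
log2 ratio of each gene in the SD pair (G93A + SD against WT + SD, vertical) against that in the vehicle pair (G93A vehicle against WT vehicle, horizontal). Values are as deposited, without a pseudocount, and colours mark the complexes. Most genes lie in a small cloud around 0, while Cox6a2, Cox6b2 and Cox7a1 lie far above it and Cox8b far below it in both pairs.

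Of the 7 tissue isoforms of complex IV, 4 differed between the genotypes by 1.5-fold or more the same way in both pairs, and no other subunit did. Of all names, 20.7% were higher by that much in the vehicle pair and 23.8% in the SD pair. Lower by that much were 10.5% and 12.8%, and the share past 1.5-fold in both pairs is not given here. Cox7a1, the heart and skeletal muscle isoform of subunit VIIa, read 8.13 and 7.86 RPKM in the WT libraries and 15.4 and 18.9 in the G93A libraries, vehicle first. Both G93A libraries were above both WT libraries, 1.90-fold with vehicle and 2.41-fold with SD. Its ubiquitous counterpart Cox7a2 read 98.8, 106, 100 and 90.6 RPKM. Cox7a1 therefore made up 7.61% and 6.90% of the sum of both isoforms in WT vehicle and WT + SD, and 13.3% and 17.3% in G93A vehicle and G93A + SD. A share within a library does not depend on how the libraries are scaled to each other.

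Cox6b2, the testis isoform of subunit VIb, read 2.27, 2.25, 6.84 and 9.16 RPKM. Again both G93A libraries were above both WT libraries, 3.01-fold and 4.07-fold, on an estimated 47.7, 49.1, 148 and 201 read pairs. Its share of the sum with Cox6b1 was 0.960% and 0.913% in WT and 2.95% and 4.09% in G93A, beside Cox6b1 (235, 244, 225 and 215 RPKM). Both rows of Cox6b2, which are transcripts NM_183405 and NM_183406, showed this pattern.

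Cox6a2, the heart and skeletal muscle isoform of subunit VIa, read 0.238, 0.130, 1.62 and 2.11 RPKM, 6.80-fold and 16.3-fold higher in G93A. The WT values rest on an estimated 5.95 and 3.38 read pairs and the G93A values on 41.8 and 55.3, so the size of the fold is imprecise. Cox6a1 read 221, 196, 213 and 195 RPKM, and the share of Cox6a2 in the sum of both was 0.108%, 0.0660%, 0.754% and 1.07%. Cox6a2 (chr7:128205435-128206366) lies inside the span of Itgad, an integrin gene on the opposite strand, which read 0.0965, 0.128, 0.170 and 0.430 RPKM. Of the 53-base windows of Cox6a2, 2.87% also occur in transcripts of other genes. Itgax, a neighbouring integrin gene of myeloid cells, read 0.0925, 0.0923, 13.2 and 15.5 RPKM. Whether reads of neighbouring or overlapping genes add to Cox6a2 was not tested.

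Cox8b, the heart and skeletal muscle isoform of subunit VIII, went the other way, with 0.735, 0.756, 0.326 and 0.143 RPKM. It was 2.25-fold lower in G93A with vehicle and 5.3-fold lower with SD, on an estimated 9.73, 10.4, 4.46 and 1.98 read pairs, which is too few for a precise fold. Cox8a, its ubiquitous counterpart, read 189, 193, 190 and 174 RPKM. The 3 remaining tissue isoforms showed no common direction in G93A. Cox7b2, a testis isoform, read 0.534, 0.875, 1.16 and 0.775 RPKM, Cox4i2, the isoform of subunit IV known from lung and hypoxia, 0.955, 1.44, 1.11 and 1.32, and Ndufa4l2, also known from hypoxia, 1.02, 0.705, 0.748 and 0.621.

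Cox6a2, Cox6b2, Cox7a1 and Cox8b are all on chromosome 7, at 128205435 to 128206366, 4751792 to 4753094, 30184171 to 30186030 and 140898942 to 140900446. Their neighbours within 1 Mb, averaging 1 RPKM or more, had median genotype ratios of 1.15, 1.07, 1.04 and 1.08 with vehicle. With SD these were 1.11, 1.09, 1.02 and 1.15. The part of the position was not tested. The 14 markers of skeletal muscle summed to 2.17, 2.09, 2.82 and 2.89 RPKM, a level of the same order as that of Cox6a2 in the G93A libraries. Of them 7 were at least 1.5-fold higher in the vehicle pair, against 20.7% of all names, and 1 was lower, against 10.5%, and 2 of the 7 were listed at 0 in WT vehicle. In the SD pair 4 were higher by that much, against 23.8% of all names, and 5 lower, against 12.8%. Tnni2, a subunit of fast muscle troponin, read 0.0814, 0.0501, 0.976 and 0.970 RPKM, while the muscle actin Acta1 lay at 0.193 to 0.263 and the creatine kinase Ckm at 0.0625 to 0.102. The sum of 10 markers of pericytes and vascular smooth muscle was 53.7, 52.8, 70.5 and 69.6 RPKM. Of 5 brown fat markers, Cidea made up nearly all of the summed 3.25, 2.66, 3.39 and 3.53 RPKM, and Ucp1 was at 0.0238 to 0.0371. The microglia markers were higher in both G93A libraries for 12 of 13 genes at 1.5-fold or more. The part of any of these cell types in the isoform levels was not tested.

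**Figure D4:**
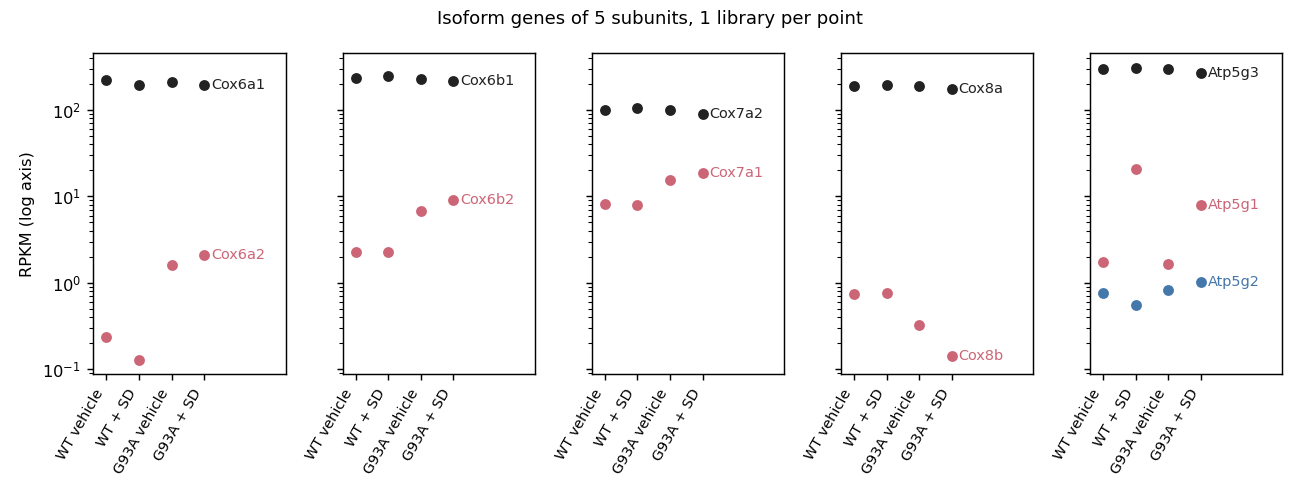
RPKM (log axis) of isoform genes of 5 subunits in the 4 libraries, 1 point per gene and library, with the most abundant isoform in black. Cox6a2, Cox6b2 and Cox7a1 are higher and Cox8b is lower in both G93A libraries, Atp5g1 is higher in both SD libraries, and the black points stay nearly level.

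The third comparison was WT + SD against WT vehicle. Neither the subunits of strong expression nor the other names at that level differed much, and 1 gene of the c ring stood out. Of the 84 names, 3 were at least 1.5-fold higher (3.57%), against 7.4% of all names, and 1 was lower (1.19%), against 8.82%. The higher names were Atp5g1, Cox4i2 and Cox7b2, and the lower one was Cox6a2. Cox4i2, at 1.5-fold, and Cox6a2, which rests on an estimated 5.95 and 3.38 read pairs, were no longer past the threshold with a pseudocount of 0.1 RPKM. The median log2 ratio was 0.03, with 51 names higher and 33 lower, beside 0.00 over all names (45.9% lower) and 0.02 over names of at least 20 RPKM (42.9% lower). Complex medians lay between -0.0027 (complex I) and 0.07 (complex V). None of the 63 subunits of at least 20 RPKM passed 1.5-fold, while 0.0997% and 0.532% of all names at that level were higher and lower by that much.

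Atp5g1 encodes the same mature c subunit of the proton-driven ring as Atp5g2 and Atp5g3, with another import sequence. It read 1.74 RPKM in WT vehicle and 20.9 in WT + SD, 12-fold higher, and this was the highest ratio of the 12983 names averaging 1 RPKM or more that were above 0 in WT vehicle. In G93A it read 1.66 RPKM with vehicle and 7.95 with SD, 4.79-fold higher and the ninth highest (rank 9 of 12987). The vehicle libraries of both genotypes were within 1.05-fold of each other, and both SD libraries were above them, with WT + SD 2.63-fold above G93A + SD. Both rows of the gene showed this, with NM_001161419 at 2.30, 21.4, 2.12 and 8.26 RPKM and NM_007506 at 1.18, 20.4, 1.20 and 7.65. The estimated read pairs were 50.5, 488, 48.1 and 190.

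The other c-ring genes did not follow Atp5g1. Atp5g3, which gave most of the c-ring RNA, read 301, 307, 296 and 268 RPKM, and Atp5g2 read 0.756, 0.558, 0.817 and 1.01. Atp5g1 thus made up 0.574% of the sum of the 3 genes in WT without SD and 6.37% with it, and 0.557% and 2.87% in G93A. The summed RPKM of the 3 genes was 304, 328, 298 and 277, higher with SD in WT and lower with SD in G93A.

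Genes around Atp5g1 (chr11:96072793-96075694) did not share its difference. The 35 names averaging 1 RPKM or more within 1 Mb had a median ratio of 0.997 for SD in WT and 0.993 in G93A. The adjacent genes Ube2z and Snf8 read 20.9, 22, 23.8 and 23.1 RPKM and 15.0, 14.9, 13.7 and 14.2. Of the neighbours, only Ngfr was at least 1.5-fold higher in WT + SD (1.68-fold), and only Skap1 was lower in each SD comparison, with 2.27, 0.440, 1.44 and 0.955 RPKM. Of the windows of Atp5g1, 61.0% also occur in Gm10039, a processed pseudogene on the same chromosome (chr11:100361716-100362126), for which the table gives no value. Whether the reads come from Atp5g1 or from such a copy cannot be told apart in these values.

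Other subunits differed less with SD in WT. Atp5h, a peripheral stalk subunit of ATP synthase, read 16.0 RPKM in WT vehicle and 23.6 in WT + SD (1.47-fold), but the G93A libraries read 22.8 and 20.2, so that WT vehicle was the low one of the 4, and 49.2% of its windows are shared. Uqcr11 read 18.1 and 21.0 RPKM in the WT pair. The lowest ratios among subunits of at least 5 RPKM were in complex I: Ndufa7 read 33.2 and 26.5 RPKM, Ndufv3 39.0 and 32.0, and Ndufc1 27.1 and 22.6. Ndufv3, a small subunit beside Ndufv1, was lower with SD in G93A as well, with 36.9 and 30.3 RPKM.

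**Figure D5:**
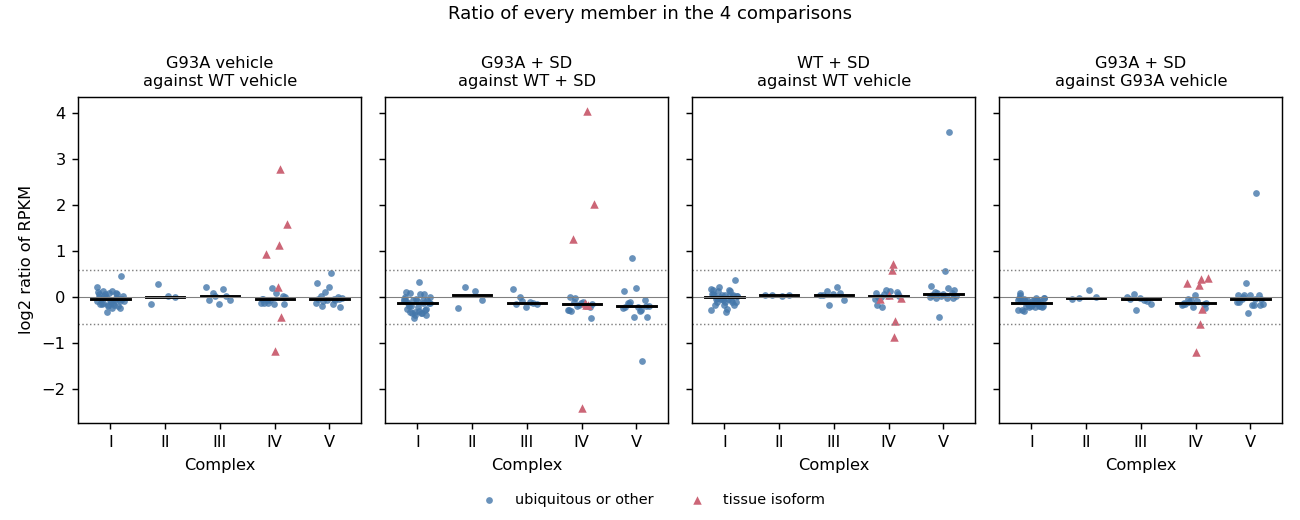
log2 ratio of each gene in the 4 comparisons (values as deposited, without a pseudocount), by complex, with tissue isoforms as triangles. Bars are medians, and dotted lines mark 1.5-fold. Points outside the dotted lines are tissue isoforms of complex IV and c-ring genes of complex V.

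The fourth comparison was G93A + SD against G93A vehicle. Of the 84 names, 1 was at least 1.5-fold higher (Atp5g1, 1.19%), against 8.89% of all names, and 1 lower (Cox8b, 1.19%), against 7.46%. None of the 63 subunits of at least 20 RPKM passed 1.5-fold, while 0.432% and 0.565% of names at that level did. The subunits of at least 20 RPKM were slightly lower with SD for the most part, with 56 of 63 lower and a median log2 ratio of -0.11, beside 56.3% lower and a median of -0.02 over all names at that level. Over the 84 names 67 were lower and 17 higher, with a median of -0.08, beside 46.6% lower over all names. Complex I had 33 of 35 names lower (median -0.12), complex II 3 of 4 (-0.02), complex III 6 of 8 (-0.05), complex IV 15 of 20 (-0.13) and complex V 10 of 17 (-0.04). This pair shares no library with the WT pair, where the median was 0.03; over both SD pairs 28 names were lower in both, 12 higher in both and 44 (52.4%) opposite, beside 45.9% opposite among names of at least 20 RPKM.

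Atp5g1 and Cox8b passed 1.5-fold in this pair, and Cox7b2 lay just short of it. Atp5k, a membrane subunit of ATP synthase, had the lowest ratio among subunits of at least 5 RPKM, with 48.9 RPKM in G93A vehicle and 38.4 in G93A + SD (1.27-fold lower), while the WT libraries read 51.2 and 52.0. Ndufa11, a membrane subunit of complex I, read 13 and 10.6 RPKM, with 14.3 and 13.3 in WT. Cox6b2 and Cox7a1 were 1.34-fold and 1.23-fold higher with SD, further from the WT level. Motor neuron markers were lower in G93A + SD than in G93A vehicle for 10 of 12 genes (median log2 ratio -0.44), general neuron markers for 11 of 14 (-0.18), oligodendrocyte markers for 7 of 9 (-0.12) and endothelial markers for 8 of 8 (-0.11). Astrocyte markers were higher for 7 of 9 genes (0.22) and microglia markers for 9 of 13 (0.12). The part of all these cell types in the subunit levels was not tested.

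Genes around the complexes were read in lists. Of 6 nuclear subunits and electron carriers that the name rule leaves out, 4 were lower in the vehicle pair of genotypes and all 6 in the SD pair (medians -0.08 and -0.28), with none at 1.5-fold. Among all names 42.5% and 42.9% were lower in these pairs, and among names of at least 20 RPKM 50.7% and 53.6%. Past 1.5-fold were 10.5% and 12.8% of all names on the lower side and 20.7% and 23.8% on the higher side. Atpif1, the inhibitor of ATP synthase, read 94.2, 90.4, 75.6 and 67.4 RPKM, and Cyc1, the cytochrome subunit of complex III, read 90.1, 87.1, 78.9 and 72.2. Of 17 enzymes of the TCA cycle and pyruvate dehydrogenase, 12 were lower in the vehicle pair and 16 in the SD pair (medians -0.08 and -0.17). In the SD pair the exception was Suclg2, the GTP-forming succinate-CoA ligase subunit, which read 4.37, 5.15, 9.15 and 14.7 RPKM (2.09-fold and 2.86-fold higher in G93A), while its ATP-forming counterpart Sucla2 read 87.4, 94.3, 73.3 and 64.6.

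Assembly factors are not part of the finished complexes and help to build them. In the vehicle pair the median log2 ratios were -0.03 for 15 factors of complex I, 0.12 for 4 of complex II, -0.09 for 6 of complex III and 0.07 for 19 of complex IV, with Lyrm7 alone past 1.5-fold, on the lower side (3, 3, 1.53 and 2.25 RPKM), against 10.5% of all names lower and 20.7% higher by that much. In the SD pair they were -0.19, 0.14, 0.00 and -0.09, and Ndufaf2 (25.6, 25.4, 21.5 and 16.1 RPKM) and Sdhaf3, listed as Acn9 (15.1, 18.8, 13 and 11.9 RPKM), were past 1.5-fold lower, against 12.8% of all names, and none was past 1.5-fold higher, against 23.8%. Of the 15 factors of complex I, 11 were lower in this pair. Of the 2 ATP synthase factors, Atpaf1, a chaperone of F1 assembly, was past 1.5-fold lower in the SD pair, with 10.2, 10.9, 7.01 and 5.85 RPKM, and Atpaf2 read 9.54, 9.12, 9.58 and 9.50. Of 17 outer membrane and import genes none passed 1.5-fold in either genotype pair. In the vehicle pair 8 were higher and 9 lower (median log2 ratio -0.0057), and in the SD pair 5 were higher and 12 lower (-0.09). Tomm20, an import receptor and 1 of the lower genes, read 10.9, 10.9, 8.08 and 8.21 RPKM.

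Of 14 regulators of mitochondrial biogenesis, 2 were at least 1.5-fold lower in the vehicle pair and 4 in the SD pair, beside 10.5% and 12.8% of all names, and none was higher by that much, beside 20.7% and 23.8%. The list was evenly split in the vehicle pair, with 7 higher and 7 lower (median log2 ratio -0.00069), and had 5 higher and 9 lower in the SD pair (-0.14). Ppargc1a, the coactivator PGC-1alpha, read 10.5, 10.8, 7.13 and 7.10 RPKM. The receptor Esrrg read 18.8, 19.6, 12.3 and 9.38, and Esrrb 2.33, 2.64, 1.5 and 1.16. Gabpa, whose motif letters are given above, was higher in both G93A libraries, with 5.39, 5.64, 7.30 and 8.11 RPKM. Mitochondrially encoded subunits were not analysed here.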

How the data were processed

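Lumbar spinal cord RNA was sequenced in 4 libraries, 1 per condition, and the authors deposited 1 table with a column per library. The deposited values were taken as RPKM, since the header gives no unit and the products of value and transcript length add up to similar totals per library. The methods name polyA selection, reads of 53 bp, STAR, GRCm38 and HTSeq on Ensembl genes, while the table lists RefSeq transcripts, so the step that gave these values is not stated in the sources used here. A count test was therefore not used. A further 3 deposited columns hold ratios of the authors' own comparisons and were left aside. All 4 per-sample columns were used and matched to the labels by name.

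The mean of a name's rows was compared as deposited, and a name was called at 1.5-fold. Medians of log2 ratios used a pseudocount of 0.1 RPKM. Transcript lengths came from GENCODE M21 through RefSeq accessions, for 22591 of the 23750 rows; 435 lengths longer than their gene were dropped. Read pairs behind a value are estimates from these lengths and carry no interval.

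Named genes were subunits past 1.5-fold averaging 1 RPKM or more, the highest and lowest of each complex, core subunits set by the rule (1 of them is not reported here), all isoform pairs, in each comparison the 3 highest and 3 lowest ratios at an average of 5 RPKM or more, and those at least 25% higher or 20% lower in both genotype pairs. The extremes of other lists are given in part. Others were named after their values were seen (Cox7c, Atp5l, Ndufs3, Ndufs8, Sdhc, Atp5e, and neighbours of Atp5g1 and Cox6a2). The subunits and lists were chosen with earlier results of these data known. The fold calls were tested on simulated 2-fold changes in names of at least 20 RPKM. That test covered no lower level and no other step. The scripts ran in Python 3.11.15 with pandas 2.3.3, numpy 2.4.6 and, for plots, matplotlib 3.10.9.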

Additional observations from a re-analysis of the deposited data

Results flagged for a closer look

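These results moved in opposite directions with SD in WT and in G93A mice, and the difference between the genotypes was not tested, since each ratio compares 1 library with 1 library. The Cox6a2 ratio of SD to vehicle was 0.545 in WT and 1.3 in G93A, on an estimated 5.95 and 3.38 read pairs in the WT libraries. That of Cox7b2 was 1.64 in WT and 0.667 in G93A, with 10.7 to 23.9 estimated read pairs per library. The median log2 ratio over the 84 subunit genes was 0.03 in WT and -0.08 in G93A.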

How the results depend on the processing

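No paired analysis was possible because the labels give no replicate numbers and the results come from no test, and with 1 library per condition no replicate could be left out. A median was taken to have moved where it changed by over 0.05 on the log2 scale, an isoform share where it changed by over 1 percentage point, and a count where it changed by over 1.5 times. All 40 isoform shares (taken from the row with the highest mean) and 8 medians of complexes I and IV (Ndufa4 and Ndufa4l2 in complex I) stayed within these limits, as did 24 of 28 medians over the 84 genes, 28 of 32 counts of higher names and 18 of 32 counts of lower names, and no median over the 84 genes changed sign. For the shares this says little. Only Cox6b2 and Atp5g1 have several rows, so shares without them could not move. Many shares are also below 1%, so they could not fall by the limit. Leaving out the 5 genes that share at least 50% of their windows, an alternative chosen after seeing the data, moved no median by over 0.05. Rescaling shifted genotype ratios by -0.06 to -0.07 on the log2 scale: the median was -0.1012 (median ratios) and -0.0963 (same sum) for the vehicle pair and -0.2002 and -0.1953 for the SD pair. With median ratios, the medians of complexes II and III in the vehicle pair (0.00 and 0.03 as reported) were -0.06 and -0.04, that of complex II in the SD pair (0.03) was -0.03, that of complex I in the vehicle pair (-0.05) was -0.11 and that of complex V in the SD pair (-0.20) was -0.26. The counts rest on few genes, mostly of low level, and the lower threshold named here takes names at least 25% higher or 20% lower. Names lower in G93A vehicle than in WT vehicle (1 as reported) were 0 with a pseudocount of 1 RPKM, 0 with a mean of at least 1 RPKM and 3 at the lower threshold. Names lower in G93A + SD than in WT + SD (2) were 1 with a mean of at least 1 RPKM and 12 at the lower threshold. For SD in WT, names higher (3) were 1 with a pseudocount of 1, 5 at the lower threshold and 1 at 2-fold, and names lower (1) were 0 with a pseudocount of 0.1 or of 1, 4 at the lower threshold and 0 at 2-fold. For SD in G93A, names higher (1) were 3 at the lower threshold, and names lower (1) were 2 under either rescaling, 0 with a pseudocount of 1, 0 with a mean of at least 1 RPKM and 3 at the lower threshold. The cause of these moves was not tested beyond what the settings themselves change. The depth limits Cox6a2, Cox8b and Cox7b2 most, since their values rest on few estimated read pairs.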
